A study of Mus musculus with 4 samples.

Results

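Bile acid synthesis and transport was examined through 10 genes, chosen by name with earlier results of these arrays known, among 24787 genes with a RefSeq name on the array. They were 4 cytochrome P450 enzymes that make bile acids from cholesterol (Cyp7a1, Cyp7b1, Cyp8b1 and Cyp27a1), the conjugating enzyme Baat, the uptake carriers Slc10a1 and Slco1b2, the export pump Abcb11, and the nuclear receptors Nr1h4 and Nr0b2. The study asked how loss of the mitochondrial fission protein Drp1, the product of Dnm1l, alters gene expression in hepatocytes. Primary hepatocytes of C57BL/6 mice were isolated by collagenase perfusion and plated on collagen, and RNA for the arrays came from cells harvested 24 h after seeding. The 4 groups were untreated control, untreated Drp1LiKO, palmitate-treated control and palmitate-treated Drp1LiKO (200 μM), and each had 1 array. Drp1LiKO cells carried Drp1 flox/flox with Alb-Cre, in which the albumin promoter drives the recombinase in hepatocytes. The control cells are labelled wild-type in one field and Drp1flox in another, and the methods name floxed littermates and male animals. The labels give neither the age of the mice, nor the number of mice behind an array, nor the vehicle, nor the length of the palmitate exposure. Both untreated arrays lay on slide 1 and both palmitate arrays on slide 2, so palmitate and slide cannot be told apart, whereas the genotypes were compared within a slide. Because no group has a replicate, differences between 2 arrays are descriptions that could not be set against the spread between animals.

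Hepatocytes turn cholesterol into bile acids by a classical route that starts with Cyp7a1 and by an alternative route through Cyp27a1 and Cyp7b1. The acids are conjugated to taurine or glycine, pumped into bile across the canalicular membrane, and taken up again from portal blood across the sinusoidal membrane. Nr1h4 (the bile acid receptor FXR) senses the acids, induces Abcb11 and Nr0b2 (SHP), and through these and other signals limits further synthesis and uptake. These roles are background and were not measured here.

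Of the 10 members, 6 were measured well above background on all 4 arrays (Cyp7b1, Cyp27a1, Slc10a1, Slco1b2, Abcb11 and Nr1h4), and 4 were measured on none (Cyp7a1, Cyp8b1, Baat and Nr0b2). The 10 genes had 16 probes of 60 bases, of which 9 were well above background on all 4 arrays and 7 on none. Levels are given as log2 intensity relative to the 75th percentile of the array, so that 0 is that percentile, and a log2 difference of 1 is a 2-fold difference. Levels of different probes are not compared, since probes differ in how brightly they read the same amount of RNA.

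One Slc10a1 probe held sequence found in front of many other genes, and it was not used for Slc10a1. It lies at chr12:82056539-82056598 on the minus strand (mm9) and aligned, over at least 40 bases at 80% identity or more, to promoter windows of 46 other genes, 49 windows of 32851 or 0.149%. The letters are those of the mouse B1 family of short interspersed repeats, which has copies throughout the genome. Bases 11 to 40 of this probe are printed first, followed by stretches of the promoter windows of Cldnd2 (chr7:43440593-43440622, plus strand) and Olfr1356 (chr10:78848045-78848074, plus strand) from RefSeq, build GRCm38.p6, with the bases that differ from the probe in capitals. Each of these stretches differed from the probe at 2 of 30 bases. The last line holds bases 1 to 30 of the other Slc10a1 probe, at chr12:82054180-82054239 (mm9, minus strand), which stands for the gene here.

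Slc10a1 repeat-matching probe: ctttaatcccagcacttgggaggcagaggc
Cldnd2 window: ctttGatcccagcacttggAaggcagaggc
Olfr1356 window: ctttaatAccagcacttggAaggcagaggc
Slc10a1 probe used: ccacaacctgcttcatgttgtaactcaaaa

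With up to 3 mismatches, the printed stretch of the repeat-matching probe occurred in 24 promoter windows of 23 other genes, whereas the stretch of the probe used occurred in 0 windows. No probe of the other 9 members aligned to the promoter window of another gene under the same rule. On the whole array 213 probes matched at least 10 windows, and they were set aside for every gene, a step chosen after seeing the data.

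The repeat-matching Slc10a1 probe read 8.38 in control, 8.42 in Drp1LiKO, 8.44 in control with palmitate and 8.50 in Drp1LiKO with palmitate. Its genotype difference was 0.04 untreated and 0.06 with palmitate, so it was nearly level over the 4 arrays. The other Slc10a1 probe differed between the genotypes by 1.06 and 0.81. The choice of probe therefore decided whether Slc10a1 differed between the genotypes. Among repeat-matching probes well above background on all arrays (n = 184), the median size of the untreated genotype difference was 0.17, beside 0.25 for the 24183 other probes. For palmitate it was the larger of the pair, 0.17 beside 0.13 in control and 0.20 beside 0.16 in Drp1LiKO.

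**Figure D1:**
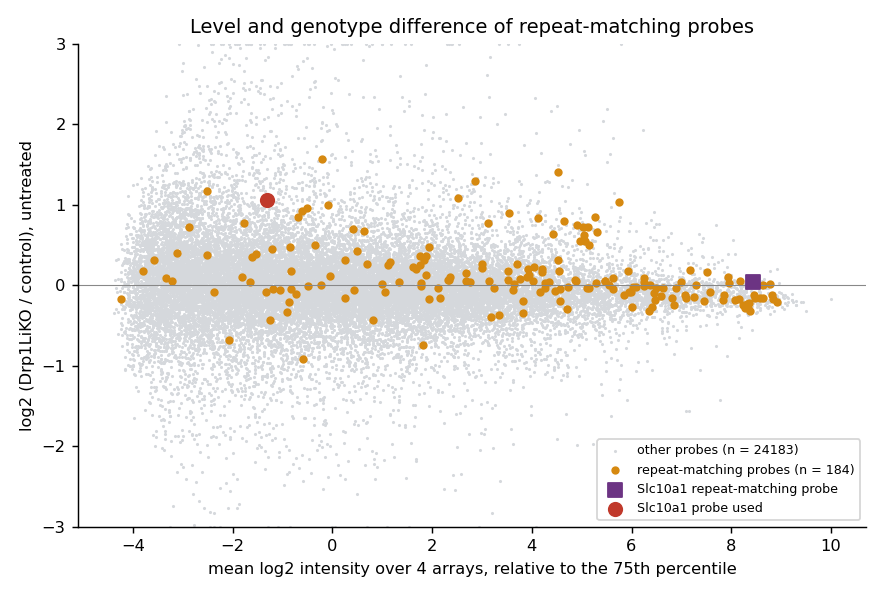
Each point is 1 probe well above background on all 4 arrays, with its mean log2 intensity relative to the 75th percentile on the horizontal axis and its log2 difference between untreated Drp1LiKO and control on the vertical axis; differences of other probes beyond ±3 are drawn at the edge. Orange points are the 184 repeat-matching probes. The repeat-matching Slc10a1 probe (square) lies at a difference of 0.04 and the Slc10a1 probe used (red circle) at 1.06.

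Among the synthesis enzymes, only those of the alternative route were measured. Cyp27a1, the mitochondrial sterol 27-hydroxylase, read −0.15 in control, 0.24 in Drp1LiKO, −0.46 in control with palmitate and −0.05 in Drp1LiKO with palmitate (probe at chr1:74782203-74782262, plus strand, mm9). Both Drp1LiKO arrays were higher than both control arrays. The genotype difference was 0.38 untreated and 0.42 with palmitate, 1.30-fold and 1.34-fold, and palmitate gave −0.32 in control and −0.28 in Drp1LiKO.

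Cyp7b1, the oxysterol 7-alpha-hydroxylase that acts after Cyp27a1, read 1.54, 1.16, 1.50 and 1.01 in the same order (probe at chr3:17972286-17972345, minus strand, mm9). Both Drp1LiKO arrays were lower than both control arrays, by 0.38 untreated and 0.50 with palmitate on the log2 scale. A second Cyp7b1 probe, whose annotated span of 23829 bases crosses an intron, gave −0.36 and −0.48 for the same differences. Cyp27a1 and Cyp7b1 thus differed in opposite directions between the genotypes, each by less than 2-fold.

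Cyp7a1, the rate-limiting enzyme of the classical route, and Cyp8b1, the sterol 12-alpha-hydroxylase that makes cholic acid, did not rise well above background on any of the 4 arrays. The same held for both probes of Baat, which joins bile acids to amino acids, and for Nr0b2. Over the 7 dim probes, which include a second probe of Slco1b2, the values lay between −7.24 and −4.92, each below the dimmest probe called well above background on its array. That limit was −4.72 in control, −5.25 in Drp1LiKO, −4.64 in control with palmitate and −4.93 in Drp1LiKO with palmitate. A difference in these 4 genes was not detectable here, and no fold is given for them.

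Both uptake carriers among the members were about 2-fold higher on the untreated Drp1LiKO array. Slc10a1, the sodium-dependent taurocholate carrier NTCP, read −1.80 in control, −0.74 in Drp1LiKO, −1.74 in control with palmitate and −0.93 in Drp1LiKO with palmitate on the probe used. Both Drp1LiKO arrays lay above both control arrays, by 1.06 untreated (2.09-fold) and 0.81 with palmitate (1.76-fold). Slco1b2, a sodium-independent organic anion carrier of the sinusoidal membrane, read −2.03, −0.84, −2.07 and −0.88 in the same order (probe at chr6:141634476-141634535, plus strand, mm9). Its genotype difference was 1.19 on both slides, or 2.28-fold, and its palmitate difference was −0.04 in each genotype.

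Abcb11, the bile salt export pump of the canalicular membrane, read 1.89 in control, 1.78 in Drp1LiKO, 1.62 in control with palmitate and 1.46 in Drp1LiKO with palmitate (probe at chr2:69076390-69076449, minus strand, mm9). It had the smallest genotype differences of the 6 measured members, −0.11 untreated and −0.16 with palmitate. Both palmitate arrays were lower than both untreated arrays, by 0.26 in control and 0.31 in Drp1LiKO.

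Nr1h4, the bile acid receptor, read 0.97 in control, 0.08 in Drp1LiKO, 0.74 in control with palmitate and −0.25 in Drp1LiKO with palmitate (probe at chr10:88917222-88917281, minus strand, mm9). It was lower on both Drp1LiKO arrays, by 0.89 untreated and 0.99 with palmitate on the log2 scale, 0.538 and 0.503 times the control level. A second Nr1h4 probe, at chr10:88960160-88960219, read −3.12, −3.33, −3.03 and −3.31 and gave smaller differences of the same sign, −0.21 and −0.29. The probes of Nr1h4 thus disagreed in the size of the genotype difference, though not in its direction.

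**Figure D2:**
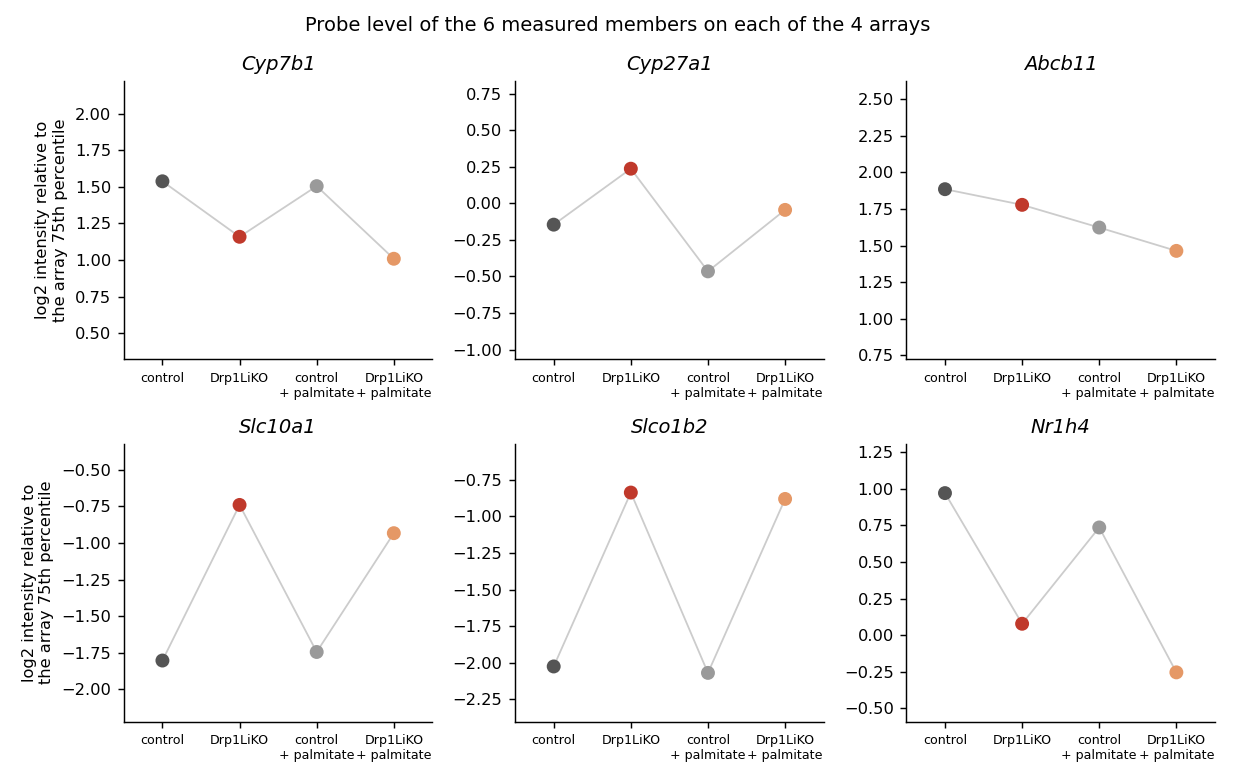
The 4 arrays stand on the horizontal axis and log2 intensity relative to the array's 75th percentile on the vertical axis, with 1 panel per measured member, 1 point per array and the same height of scale in every panel. Slc10a1 and Slco1b2 are higher on both Drp1LiKO arrays, Nr1h4 and Cyp7b1 are lower, and Abcb11 moves least between the genotypes.

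Past a 2-fold difference between the genotypes, 2 of the 6 measured members were counted on the untreated arrays, Slco1b2 and Slc10a1, both higher in Drp1LiKO. Over all genes 13.8% of 15129 passed the same threshold in either direction, or 8.18% of the genes measured on both arrays, as all 6 members were. With palmitate 1 of 6 passed, Slco1b2, beside 11.3% of all genes and 6.01% of those measured on both arrays. Nr1h4, at −0.99, lay just short of the threshold there. The median member difference was 0.14 untreated and 0.13 with palmitate, with 3 members higher and 3 lower each time, beside medians of −0.02 and −0.03 over all genes. With normexp background correction, run with 50 added to every intensity, 0 members passed in either comparison, and the share of all genes was not computed there. The differences were then 0.86 and 0.83 for Slco1b2 and 0.78 and 0.57 for Slc10a1. With so few members these shares describe the 6 genes and set nothing apart from the other genes.

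**Figure D3:**
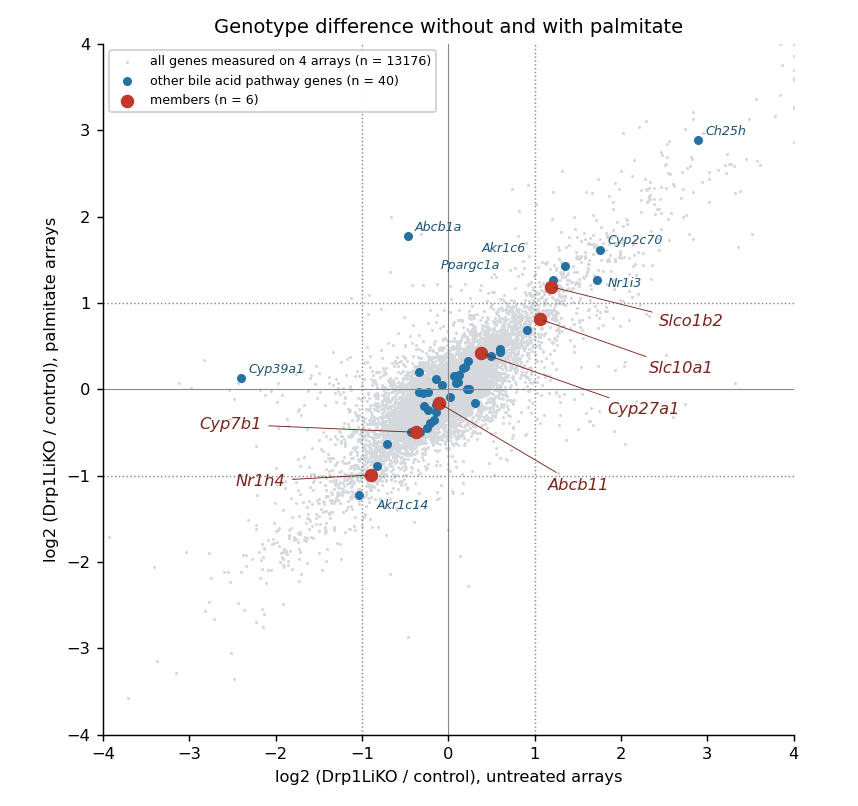
The log2 difference between Drp1LiKO and control is plotted on the untreated arrays (horizontal axis) and on the palmitate arrays (vertical axis) for the 13176 genes measured on all 4 arrays (grey), 40 other bile acid pathway genes (blue) and the 6 members (red), with dotted lines at 2-fold and grey points beyond ±4 drawn at the edge. The members lie near the diagonal, from Nr1h4 at −0.89 and −0.99 to Slco1b2 at 1.19 and 1.19.

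After palmitate, 0 of the 6 measured members differed by 2-fold from the untreated array of the same genotype, in control or in Drp1LiKO. The shares over all genes were 4.68% and 5.88%, or 0.96% and 2.02% of the genes measured on both arrays. The member differences ran from −0.32 (Cyp27a1) to 0.06 (Slc10a1) in control, with 5 of 6 below 0, and from −0.33 (Nr1h4) to −0.04 (Slco1b2) in Drp1LiKO, with 6 of 6 below 0. Their medians were −0.14 and −0.24, against −0.01 over all genes in each genotype. No member responded to palmitate differently in the genotypes by 2-fold, 0 of 6 beside 9.15% of all genes and 1.65% of those measured on all arrays. The largest such difference in size was that of Slc10a1, −0.25. Several of these small palmitate differences turned in sign with the probe or the processing. On the repeat-matching Slc10a1 probe the difference was 0.08 in Drp1LiKO and the difference of responses 0.02, on the second Nr1h4 probe palmitate gave 0.09 in control and 0.01 in Drp1LiKO, and with normexp Slco1b2 gave 0.03 in control.

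**Figure D4:**
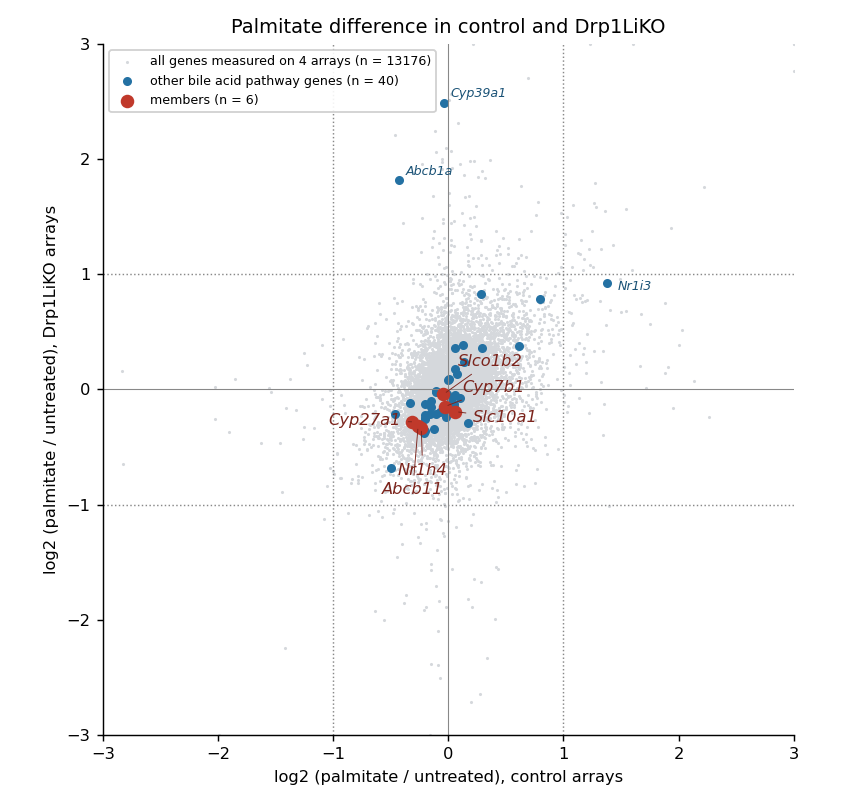
The log2 difference between palmitate and untreated arrays is plotted for control (horizontal axis) and Drp1LiKO (vertical axis), with the same colours as in the plot of genotype differences and grey points beyond ±3 drawn at the edge. All 6 members (red) lie within −0.33 and 0.06, inside the dotted 2-fold lines, while Cyp39a1 and Abcb1a stand at 2.49 and 1.82 in Drp1LiKO.

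The design allows 1 test across arrays, an additive limma fit of genotype with palmitate, which is also the slide, as the other term. Here the genotype difference was 1.19 ± 0.07 (SE) for Slco1b2, 0.94 ± 0.11 for Slc10a1, −0.94 ± 0.07 for Nr1h4, −0.44 ± 0.08 for Cyp7b1, 0.40 ± 0.07 for Cyp27a1 and −0.13 ± 0.07 for Abcb11. Adjusted over 15590 genes by limma and Benjamini-Hochberg, the p-values were 0.0829, 0.0953, 0.0869, 0.126, 0.121 and 0.318 in that order. No gene passed an adjusted p of 0.05 in this fit (0 of 15590, or 0%), although 4672 had an unadjusted p under 0.05 and the smallest adjusted p was 0.0814. The fit takes the untreated and the palmitate array of a genotype as repeats, and the labels do not say whether they come from different mice. Its 1 residual degree of freedom is the difference of the palmitate responses, which holds any interaction as well as noise. The SE and p-values therefore do not measure the spread between animals. Calls of the fit also depended on the handling of the spread. With an intensity trend, limma's adjusted p was 0.00201 for Slco1b2, 0.00485 for Slc10a1, 0.00187 for Nr1h4, 0.0146 for Cyp7b1 and 0.0213 for Cyp27a1, beside 28.4% of all genes called. With only the 13176 genes measured on all 4 arrays, the same 5 members passed, beside 20.9% of all genes, and with normexp background correction 3 members passed, beside 13.2%.

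Promoter sequence from RefSeq (GRCm38.p6) was at hand for 7 of the 10 members. The upstream parts are printed for Slc10a1 (chr12:80968706-80968955, minus strand) and Slco1b2 (chr6:141629268-141629451, plus strand), the carriers that were higher in Drp1LiKO, and for Abcb11 (chr2:69342617-69342866, minus strand), a known target of Nr1h4 that differed little. Each runs along the strand of its gene and stops at the base before the annotated gene start. Capitals mark the core motif AGGTCA of nuclear receptors, or TGACCT where it lies on the other strand.

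Slc10a1 upstream: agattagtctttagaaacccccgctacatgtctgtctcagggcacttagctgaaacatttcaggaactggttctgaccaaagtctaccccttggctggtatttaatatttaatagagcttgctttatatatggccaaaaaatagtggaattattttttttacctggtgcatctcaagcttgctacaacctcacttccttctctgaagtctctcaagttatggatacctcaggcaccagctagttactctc
Slco1b2 upstream: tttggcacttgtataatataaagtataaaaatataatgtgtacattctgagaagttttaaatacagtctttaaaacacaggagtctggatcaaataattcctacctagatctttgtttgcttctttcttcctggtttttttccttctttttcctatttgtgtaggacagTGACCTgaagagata
Abcb11 upstream: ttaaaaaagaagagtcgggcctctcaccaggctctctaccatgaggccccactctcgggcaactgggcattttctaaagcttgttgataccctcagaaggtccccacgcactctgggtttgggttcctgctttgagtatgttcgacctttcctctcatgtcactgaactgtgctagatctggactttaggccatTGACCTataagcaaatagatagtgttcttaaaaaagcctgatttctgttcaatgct

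The printed stretch of Slc10a1 held 0 such motifs, that of Slco1b2 held 1, which began 15 bases before the gene start, and that of Abcb11 held 1, which began 56 bases before it. In the 250 bases before the annotated start nearest the outer end of each gene, AGGTCA on either strand occurred in 3 of the 7 members (Abcb11, Nr1h4 and Slco1b2) and in 14.0% of all 32851 promoters. The Nr1h4 window lies 26987 bases from the outer start of the gene, at an internal start. The Hnf4a motif CAAAGTCCA occurred in Cyp8b1 and in 0.384% of all promoters. All motifs were searched as exact letters, with no mismatch allowed. Nr1h4 with its partner Rxra is known to bind the inverted repeat of AGGTCA with 1 base between the copies. In exact form neither this repeat nor the direct repeat with the same spacing occurred in a member. They occurred in 0.00609% and 0.0335% of all promoters. The Nr5a2 motif CAAGGTCA, which contains AGGTCA, was likewise in no member (1.33% of all promoters). In the printed Abcb11 stretch, however, aggcca stands before TGACCT with 1 base between them. It differs from AGGTCA at 1 base, so an inexact inverted repeat is present there that the search did not count. Matches of letters are descriptions of these windows and not evidence of binding.

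Around the members, 50 other genes of bile acid metabolism were listed, of which 43 were measured on at least 1 array. Between the untreated genotypes 6 were at least 2-fold higher and 2 at least 2-fold lower in Drp1LiKO among 42 measured, beside 13.8% of all genes in either direction, and with palmitate 8 were higher and 1 lower among 42, beside 11.3%. Limited to genes measured on both arrays, 5 and 2 passed untreated and 6 and 1 with palmitate, beside 8.18% and 6.01% of all genes. With normexp background correction 4 passed in each comparison, a setting in which the share of all genes was not computed. The median differences were −0.02 and 0.08. In response to palmitate 1 of 41 passed 2-fold in control and 3 of 43 in Drp1LiKO, all of them higher, beside 4.68% and 5.88% of all genes. Of the 4 other genes listed for sinusoidal uptake, 0 of the 3 measured passed 2-fold between the genotypes, and their medians were −0.23 untreated and −0.15 with palmitate. This depended on the probe for Slco2b1, where the probe used gave −0.34 and 0.20. A second Slco2b1 probe, not well above background in control with palmitate, gave 0.90 and 1.04. The array design places the probe used on the plus strand and the second probe on the minus strand. Both therefore cannot read the same transcript, and which of them matches the strand of the gene was not analysed here. The count and medians for uptake rest on the plus-strand probe.

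Among the synthesis and side-chain enzymes, Ch25h, the cholesterol 25-hydroxylase, had the largest genotype difference. It read −4.25 in control, −1.36 in Drp1LiKO, −3.46 in control with palmitate and −0.58 in Drp1LiKO with palmitate, 7.44-fold and 7.38-fold higher in Drp1LiKO. Cyp2c70, which makes the muricholic acids of the mouse, read 0.93, 2.69, 0.94 and 2.55, 3.38-fold and 3.07-fold higher. Akr1c6 was higher by 1.35 and 1.43 on the log2 scale, and the related reductase Akr1c14 was lower by 1.04 and 1.22. A second Akr1c14 probe, well above background on all 4 arrays, gave smaller differences of the same sign, −0.52 and −0.25. Hsd3b7, which follows the 7-alpha-hydroxylases in the pathway, differed by 0.60 and 0.47, and the bile acid ligase Slc27a5 by 0.12 and 0.17.

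Cyp39a1, an oxysterol 7-alpha-hydroxylase like Cyp7b1 that prefers another substrate, read 1.45 in control, −0.96 in Drp1LiKO, 1.41 in control with palmitate and 1.53 in Drp1LiKO with palmitate. The untreated Drp1LiKO array alone was low, which gave a genotype difference of −2.40 there and of 0.13 with palmitate. Abcb1a, a canalicular drug transporter, read −1.19, −1.66, −1.62 and 0.16, and the Drp1LiKO palmitate array alone was high. Slc51b, a subunit of the basolateral bile acid exporter, was well above background on the Drp1LiKO palmitate array only, at least 3.19-fold above control with palmitate. Of the spots around the Slc51b spot, 2 were likewise well above background on that array only, beside a mean of 0.22 around a spot of that array. A local effect on the array was not tested. Acnat1, related to Baat, was well above background on both Drp1LiKO arrays only, at least 2.51-fold higher untreated and 1.37-fold with palmitate. These last 2 genes were chosen after their values were seen.

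Of 14 measured regulators, 2 passed 2-fold between the genotypes, both of them higher in Drp1LiKO on both slides. All 14 were measured on both arrays. Of all such genes 8.18% passed untreated and 6.01% with palmitate, beside 13.8% and 11.3% of genes measured on at least 1 array. With so few regulators these shares set nothing apart from the other genes. Nr1i3, the receptor CAR, read −4.59 in control, −2.87 in Drp1LiKO, −3.21 in control with palmitate and −1.95 in Drp1LiKO with palmitate, 3.30-fold and 2.40-fold higher in Drp1LiKO. It was also 2.60-fold higher after palmitate in control and 1.90-fold in Drp1LiKO. The untreated control value of Nr1i3 lay just above the detection limit of that array, −4.72, so the folds set against it are uncertain. With normexp background correction 0 listed pathway genes passed 2-fold after palmitate in control, a setting in which the share of all genes was not computed. Ppargc1a, a coactivator of metabolic genes, was higher by 1.21 and 1.27 on the log2 scale. Nr5a2 (LRH-1), known for driving Cyp7a1 and Cyp8b1, was lower by 0.71 and 0.63. Hnf4a differed by 0.07 and 0.15, and Fgfr4, the hepatocyte receptor for the gut hormone FGF15, by 0.60 and 0.43.

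Patterns over the 4 arrays, each centred on its own mean, were compared with those of 13175 other genes measured on all arrays by Euclidean distance in log2 units. Nearest to Slco1b2 were Creb3l3 (0.03), Gm4907 (0.06) and Cyp2c44 (0.06). Slc10a1 was nearest to Evc2 (0.05), Cyth3 (0.06) and Nbl1 (0.07), and Nr1h4 to Sh3rf1 (0.07), F3 (0.08) and Tuft1 (0.08). The carriers were not each other's nearest neighbours, since Slc10a1 ranked at place 110 from Slco1b2 and Slco1b2 at place 230 from Slc10a1. With 4 arrays such nearness is a description of shape and nothing more.

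Dnm1l, the deleted gene, read 2.44 in control, 1.08 in Drp1LiKO, 2.44 in control with palmitate and 1.02 in Drp1LiKO with palmitate, 0.391 and 0.373 times the control level. A second, dim Dnm1l probe read −4.39 in control and −4.74 in Drp1LiKO, near the detection limit, a smaller difference of −0.35. With palmitate that probe was not well above background in either genotype, so no difference is given there. Of 10 hepatocyte markers 9 were measured, among them Alb, and their summed level lay between 10.2 and 10.4 on all arrays. Markers of non-parenchymal cells moved with genotype beside the members. The median genotype difference was 2.37 untreated and 1.75 with palmitate over 12 and 11 measured macrophage markers of 13, 2.02 and 1.56 over 8 and 7 of 8 endothelial markers, and 3.22 and 2.44 over 8 and 7 of 9 stellate markers. Limited to markers measured on both arrays, the stellate medians fell to 1.11 (5 markers) and 1.61 (4 markers). The macrophage medians were then 2.37 (10) and 1.61 (7), and the endothelial medians 1.98 (7) and 1.56 (5). The summed level of the macrophage list lay between 4.53 and 4.78 in control and between 5.66 and 5.73 in Drp1LiKO, that of the endothelial list between 0.57 and 0.63 and between 1.69 and 2.20, and that of the stellate list between 5.51 and 5.55 and between 5.90 and 5.98. The hepatocyte list had medians of 0.48 and 0.34, with Ahsg (1.64 and 1.76) and Tat (1.50 and 1.22) past 2-fold on both slides. Its markers went both ways, 7 above and 2 below 0 untreated, and 6 above and 3 below with palmitate. The lowest was Cyp2e1, at −0.66 and −0.72. The cholangiocyte list had medians of 0.19 and −0.34 over 6 of 8 markers. The macrophage marker Timd4 and the stellate marker Des were measured on no array. The summed levels follow the brightest probes of each list. For stellate cells that was Acta2, at 5.48 in control, whose genotype difference was 0.22 untreated and 0.02 with palmitate. For hepatocytes they were Serpina1c and Alb. The part of these marker shifts in the differences of the members was not tested, and in such bulk samples fewer cells of a type and less RNA per cell cannot be told apart.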

How the data were processed

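RNA of 4 hepatocyte samples was labelled with Cy3 and hybridised to a 60-mer mouse array (SurePrint G3). The deposited scanner tables hold background-subtracted intensity values, written per the file headers by Feature Extraction 10.7.1.1, while the submitters' processing notes name 9.5.1.1. The authors also deposited a processed intensity table, whose 4 columns hold the same sorted values as a quantile normalization gives, and it served as an alternative. Labels and methods name different RNA kits. The label of the untreated control array says that its raw data also serve another series. Probe positions are those of the array design (mm9), and exon positions were not analysed here.

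After a log2 transformation of the processed signal, each array was centred on its own 75th percentile (intensity 480, 537, 420 and 465). Control spots and outlier spots were left out, and no spot was saturated (0 on each array). Between 44.7% and 51.1% of probes were well above background, and probes printed 10 times had an SD of 0.04 log2 between repeat spots within an array, which is spot noise only. All 60-base probes were aligned with blastn 2.17.0 to 32851 RefSeq promoter windows (250 bases before to 50 after a gene start), and those matching at least 10 windows of other genes were set aside, a step chosen after seeing the data. The brightest remaining probe well above background on at least 1 array stood for a gene. Differences of at least 1 (log2) were counted without a test, and a printed "at least" fold sets the brighter array against the detection limit of the other or the dim probe's own value. Genotype was tested with limma 3.58.1 in R 4.3.3 (additive with palmitate, two-sided, Benjamini-Hochberg).

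The members, the lists of pathway genes and markers and the tests were chosen with earlier results of these data known. Named genes were all members, listed pathway genes past 2-fold with both arrays well above background, Cyp2c70, Slc27a5, Hsd3b7, Fgfr4, Hnf4a and Nr5a2 whatever their values, Dnm1l, and the 3 nearest patterns of each member whose arrays span at least 1 log2 unit. Alternatives were normexp background correction, quantile normalization, the processed table, stricter detection, the mean of all probes, no filter, a variance trend, a threshold of 0.5 and keeping the repeat-matching probes. Protein features were not analysed here.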

Additional observations from a re-analysis of the deposited data

Results flagged for a closer look

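Among the genes named by the rule, Abcb1a and Cyp39a1 had differences of opposite sign in matched comparisons, with 1 array per group. These were not tested, and the limit used, 2 SD of a difference of repeat spots, holds spot noise within an array and not the spread between arrays or animals. For Abcb1a the palmitate difference was −0.43 in control and 1.82 in Drp1LiKO, and the genotype difference was −0.47 untreated and 1.78 with palmitate, which is a difference of 2.25 either way. The genotype difference of Cyp39a1 was −2.40 untreated and 0.13 with palmitate, 2.53 apart, of which the second value is small and its sign uncertain. Neither gene is one of the 10 members.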

How the results depend on the processing

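No paired analysis was possible because the labels give no replicate numbers, apart from the limma fit itself, in which the slide acts as a block, and with 1 array per group no array could be left out within a group. Normexp background correction was run with an offset of 50 added to every intensity. It shrank the differences of the dimmer probes, and 0 members then passed 2-fold in either genotype comparison (Slco1b2 0.86 and 0.83, Slc10a1 0.78 and 0.57). An added constant shrinks differences of dim probes by itself, and its part was not separated from that of the correction. With normexp 4 other pathway genes passed 2-fold between the untreated genotypes, 4 with palmitate, and 0 after palmitate in control. At a threshold of 0.5, 3 members passed with palmitate (Slco1b2, Slc10a1 and Nr1h4). The share of all genes was computed neither at that threshold nor at 2-fold with normexp, so these counts have no background beside them. Keeping the repeat-matching probes, an alternative chosen after seeing the data, left 1 member past 2-fold untreated, and limma then gave Slc10a1 a genotype difference of 0.05 (adjusted p 0.625). The mean of all probes of a gene moved Nr1h4 to −0.55 untreated and −0.64 with palmitate. The number of genes that limma called for genotype was 0 as reported, 4426 with an intensity trend (5 of the 6 members), 2756 (20.9%, 5 members) when limited to genes measured on every array, and 2054 (13.2%, 3 members) with normexp, and 0 under quantile normalization, the processed table, the mean of all probes, no filter and repeat-matching probes kept. The cause was not tested. No member past 2-fold changed sign under any alternative. The other total counts of members and pathway genes, both directions together, stayed within 1.5 times their value, but with the mean of all probes the lower pathway genes numbered 1 in place of 2 untreated and 0 in place of 1 with palmitate. The median of the shifts of single genes under another scaling was at most 0.02 in size. With normexp the median untreated genotype difference over all 15590 genes measured on at least 1 array went from −0.03 to −0.06. With 1 array per group, precision is limited by the number of arrays, and 4 members lay below the detection limit.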
